A study of Mus musculus with 64 samples.

Results

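The 10 immediate early genes Fos, Fosb, Junb, Egr1, Egr2, Egr4, Nr4a1, Npas4, Arc and Ier2 were followed through RNA-seq read counts of mouse hippocampus and liver. The members were the rows whose Ensembl gene ID maps to these symbols, and 10 of 10 were found among the 55414 gene IDs of the acute data and among the 55573 gene IDs of the continuous data. Immediate early genes are transcribed within minutes of a stimulus, without new protein synthesis, and their mRNAs decay quickly. In hippocampal neurons synaptic activity switches them on through calcium, cAMP and MAP kinase signalling, which act on the transcription factors CREB, SRF and MEF2 already bound at their promoters. They are widely used as a record of recent neuronal activity, and glucocorticoids, the adrenal stress hormones, are known to influence activity-dependent transcription in the hippocampus and to oppose AP-1, the dimer of FOS and JUN proteins, through the glucocorticoid receptor.

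The study compared wild-type (WT) mice with a mouse model of Angelman syndrome (AS), Ube3a m-/p+, in which the maternal allele of the ubiquitin ligase gene Ube3a (Ube3atm1Alb) lacks exon 5. All mice were F1 males aged 10 to 18 weeks from WT C57BL/6J fathers and 129sv Ube3a m+/p- mothers. In the acute cohort 24 mice, 6 per group, had their hippocampus collected 3 h after a subcutaneous injection of vehicle or of 3 mg/kg corticosterone (CORT), the main glucocorticoid of mice. In the continuous cohort 20 mice, 5 per group, were implanted for 5 days with a pellet that held 20 mg CORT or vehicle alone, and both hippocampus and liver were sequenced. Because the paternal allele is silent in neurons only, the model loses UBE3A from neurons while other cells, hepatocytes included, keep a working copy.

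Reads per library numbered 21779535 to 24735429, of which 18612550 to 21783009 lay on genes. A count of 3, taken as the floor of a library, corresponded to 0.1354 to 0.1605 CPM, the count scaled to the reads on genes with TMM normalization. This floor covers counting error only. Fkbp5 and Tsc22d3, which the activated glucocorticoid receptor induces directly, rose with CORT in every set (log2 0.53 to 4.14). The count of Ube3a did not differ between genotypes in the acute vehicle hippocampus (log2 -0.06, SE 0.09), and was lower in AS mice in the vehicle liver (log2 -0.55, SE 0.09). Since the count includes exons outside the deletion, the lack of a difference in the hippocampus is no check of the labels. A list of 9 hippocampal neuron markers summed to 12657 to 16102 CPM in the acute hippocampus, and a list of 8 hepatocyte markers to 90537 CPM or more in the liver. Choroid plexus markers stood at 1071 CPM in 1 acute WT vehicle library and at 61.8 CPM or less in the other acute libraries, and ranged from 36.5 to 2899 CPM in the continuous hippocampus. In the acute cohort 8 libraries, H17 to H24, had 2640 to 2850 reads set aside for low alignment quality against 1877 to 2237 in H1 to H16. These 8 were all 6 AS mice with CORT and 2 of the 6 AS mice with vehicle, so results of AS mice with CORT are given below with and without that division. In the continuous hippocampus H9 (AS vehicle) and H13 (WT vehicle) were left out, as the study did, which left 4 vehicle mice of each genotype.

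Positions are given for GRCm38. Fos occupies chr12:85473890-85477273 on the plus strand, Fosb chr7:19302696-19310051 on the minus strand, and Junb chr8:84974484-84978718 on the minus strand, where it overlaps Prdx2 on the opposite strand. Egr4 lies at chr6:85511121-85513589 on the minus strand and Nr4a1 at chr15:101254269-101274795 on the plus strand. Junb was the only member whose span overlapped another gene, so its count alone could be altered by reads of a neighbour if counting ignored strand.

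The promoters of 7 members shared a short sequence that the choice of members did not use, and Arc, Egr1 and Ier2 have no window here. In the RefSeq promoter windows of GRCm38.p6, 250 bases upstream of the start were searched on both strands for TGACG, the core of the site that CREB binds. It was found in 7 of these 7 members and in 19.8% of 27025 genes. Stretches of 60 bases are shown for the members whose levels are described most closely below, with Fos for reference, each 5′ to 3′ on the gene's own strand, with TGACG or its complement CGTCA in capitals.
Fos (chr12:85473819-85473878, plus strand): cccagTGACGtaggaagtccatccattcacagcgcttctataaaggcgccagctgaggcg
Fosb (chr7:19310051-19310110, minus strand): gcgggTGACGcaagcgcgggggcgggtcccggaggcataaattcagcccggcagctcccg
Junb (chr8:84978800-84978859, minus strand): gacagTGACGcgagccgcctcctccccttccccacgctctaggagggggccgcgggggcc
Egr4 (chr6:85513644-85513703, minus strand): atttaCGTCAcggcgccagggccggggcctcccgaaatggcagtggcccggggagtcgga
Nr4a1 (chr15:101266772-101266831, plus strand): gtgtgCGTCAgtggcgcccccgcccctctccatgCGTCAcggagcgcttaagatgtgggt
Nr4a1 carried 4 such matches in its 250 bases and Fosb and Junb 1 each. The full palindrome TGACGTCA, which contains TGACG, was in 0 of 7 members and in 1.77% of all genes. A CArG box, the site of SRF, was in Egr2 alone (1.62% of all genes), and TATAAA in Fos alone (14.3%). The palindromic glucocorticoid response element (0.0111% of all genes), the AP-1 site TGANTCA (7.82%) and the EGR site CGCCCACGC (0.622%) were in 0 of 7. These are matches of letters in a window of 250 bases. Sites farther upstream were not searched, so a motif not found here may lie outside the window. Binding was not measured.

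Levels per length were compared in WT vehicle mice as RPKM, the count scaled to library size and exon length. In the acute hippocampus Arc, whose protein remodels AMPA receptor traffic at synapses, was highest at 58.1 ± 25.6 RPKM (SD, n = 6). Junb, an AP-1 subunit, and Egr1, a zinc finger factor of synaptic plasticity, followed at 36.6 ± 12.6 and 35.0 ± 11.9 RPKM, which did not differ beyond their spread. Egr4 (23.1 ± 7.59 RPKM) and the orphan nuclear receptor Nr4a1 (20.3 ± 7.25 RPKM) formed the next such pair. The other 5 members were well below, with Ier2 at 3.64 ± 1.25, Fos at 3.55 ± 1.91, the neuron-specific factor Npas4 at 2.36 ± 1.84, Fosb at 1.53 ± 0.205 and Egr2 at 0.599 ± 0.403 RPKM. In the continuous WT vehicle hippocampus the order was the same apart from a change of places between Nr4a1 (13.1 ± 6.17 RPKM, n = 4) and Egr4 (9.80 ± 2.40 RPKM). The levels of the 2 cohorts come from tables normalized separately.

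The spread between mice of the same group differed by member and group. Npas4 ranged over 8.63 times, from 2.42 to 20.9 CPM, among the 6 acute WT vehicle mice, whereas Fosb ranged over 1.38 times, from 8.22 to 11.3 CPM. In the other acute groups the widest member was Npas4 with 3.15 times (WT CORT) or Egr2 with 8.29 times (AS vehicle) and 5.22 times (AS CORT). Fosb ranged over 1.94 times in WT CORT and 1.95 times in AS vehicle mice, close to the medians over the members of 1.98 and 2.02 times, and over 1.57 times in AS CORT mice. Egr2 had the fewest reads, 6 to 49 per library in these 3 groups, and so the largest counting error.

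**Figure D1:**
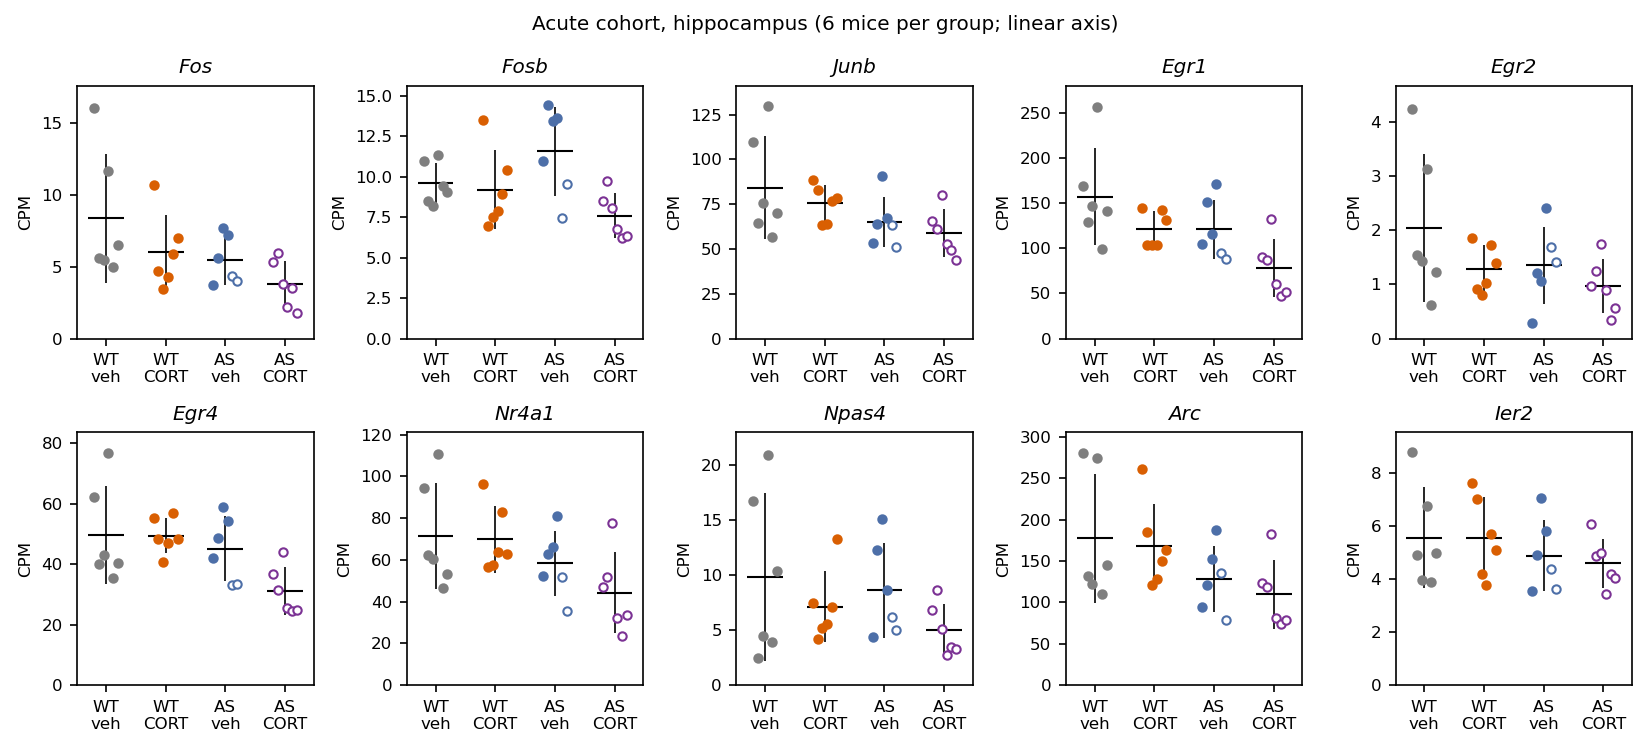
Levels of the 10 members in the acute hippocampus in CPM (1 panel per gene, axes from 0, separate scales), with 1 point per mouse, bars at the group mean and lines of 1 SD, 6 mice per group, open circles for H17 to H24. Mice of all groups overlap in every panel, and the AS mice with CORT lie lowest on average for all 10 genes.

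Acute CORT in WT mice was compared with vehicle to ask how the hippocampus of a normal mouse answers the hormone. None of the 10 members passed the test (edgeR quasi-likelihood test, Benjamini-Hochberg adjusted p of 0.582 or more), beside 1.48% of 14611 genes, and 0 members were under an unadjusted p of 0.05 or called by DESeq2. The AP-1 subunit gene Fos was at 4.98, 6.03 and 16 CPM (lowest, median and highest of 6 vehicle mice) and at 3.42, 5.3 and 10.6 CPM with CORT. The highest CORT mouse thus stood below the highest vehicle mouse, but the ranges overlapped, with a log2 difference of -0.48 (SE 0.30, adjusted p = 0.618). Egr1 was at 99.6, 144 and 256 CPM with vehicle and at 103, 117 and 144 CPM with CORT, a log2 difference of -0.37 (SE 0.22, adjusted p = 0.582). Egr4, Nr4a1, Arc, Fosb and Ier2 lay between -0.08 and 0.00, and the remaining members Junb (-0.15), Npas4 (-0.46) and Egr2 (-0.66) were not past the test either. The ranges of the groups overlapped for all 10 members, while 1.22% of genes had ranges apart.

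In AS mice the same comparison gave 3 lower members, Fosb, Egr1 and Egr4, of 10 tested. Of all 14611 genes 17.9% passed in either direction and 9.62% were lower. Fosb, which encodes a subunit of AP-1 whose truncated form accumulates with repeated activity, was at 7.42, 12.2 and 14.4 CPM (lowest, median, highest) with vehicle and at 6.2, 7.42 and 9.73 CPM with CORT. All 6 CORT mice were under the vehicle median, although the ranges overlapped. The log2 difference was -0.61 (SE 0.16, adjusted p = 0.012).

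Egr4, a zinc finger factor of the same family as Egr1, was at 33, 45.4 and 59 CPM with vehicle and at 24.4, 28.4 and 43.9 CPM with CORT, again with 6 of 6 CORT mice under the vehicle median and with overlapping ranges (log2 -0.53, SE 0.18, adjusted p = 0.0409). Egr1 was at 88.2, 110 and 171 CPM with vehicle and at 47.4, 73.2 and 132 CPM with CORT. Of the CORT mice 5 of 6 were under the vehicle median and H21 was above it (log2 -0.63, SE 0.22, adjusted p = 0.0492). DESeq2 called 2 of the 10 members, and Egr1 had an adjusted p of 0.061 there. The other 7 members had differences below 0 that did not pass, from -0.08 for Ier2 to -0.78 for Npas4. The median over the 10 members was -0.51 against 0.01 over all genes tested. Junb and Ier2 were above 0 in 3 of 10 alternative settings of the fit, and Nr4a1 and Arc in 2 of 10. Since the members varied together from mouse to mouse, a shared sign is not 10 separate results. Ranges of the groups overlapped for all 10 members, where 5.75% of genes had ranges apart.

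The lower calls depended on which AS vehicle mice entered. Fosb was at 11, 14.4, 13.5 and 13.6 CPM in the 4 AS vehicle mice H13 to H16, and at 7.42 and 9.55 CPM in H17 and H18, which share the higher number of low-quality reads with all AS mice given CORT. Egr4 was likewise at 42.2, 48.7, 59 and 54.2 CPM in H13 to H16 and at 33 and 33.5 CPM in H17 and H18. For both genes the 2 vehicle mice H17 and H18 thus sat below the other 4 and within the range of the CORT mice. When the AS vehicle group was reduced to H17 and H18, Fosb, Egr1 and Egr4 differed by -0.16, -0.23 and -0.10 (adjusted p of 0.956 or more), and 0 of 10 members and 132 genes passed. With a covariate for the division the values were -0.16, -0.23 and -0.10, with 0 members and 150 genes. When the AS vehicle group was reduced to H13 to H16 they were -0.79, -0.80 and -0.71, with the same 3 members called and 4484 genes. CORT and the division are separated here only by the 2 vehicle mice of H17 to H24, since all 6 AS mice with CORT belong to that division. With GC and length trends of each library removed, Fosb kept its call (-0.51, adjusted p = 0.0287), and Egr1 (-0.51, adjusted p = 0.0987) and Egr4 (-0.30, adjusted p = 0.137) lost it.

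Markers of cell types also differed between the AS groups. Summed over 5 endothelial markers the CORT mice were at 108 to 125 CPM and the vehicle mice at 132 to 160 CPM, without overlap. Myelin markers were at 1761 to 3491 CPM with CORT and 2591 to 5048 CPM with vehicle, neuron markers at 12710 to 14522 and 12657 to 15558 CPM, microglia markers at 172 to 214 and 190 to 242 CPM, and astrocyte markers at 1244 to 1351 and 1106 to 1272 CPM, all with overlap. Their part in the levels of Fosb, Egr1 and Egr4 was not tested.

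Leaving out any of 24 mice kept the call of Fosb (log2 -0.72 to -0.53, adjusted p up to 0.0414). That of Egr4 was lost without any 1 of H14, H15, H16, H20, H22, H23 and H24 (adjusted p up to 0.102, log2 -0.46 without H15). That of Egr1 was lost without any 1 of 15 mice, H1, H2, H3, H6, H11 to H16, H19, H20 and H22 to H24 (adjusted p up to 0.128, log2 -0.52 without H16). Without H21, the AS CORT mouse with the highest Egr1, Egr4 and Nr4a1, the differences were largest, at -0.86 for Egr1 and -0.67 for Egr4.

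With vehicle, no member passed the test between AS and WT mice (0 of 10, beside 0.157% of genes, DESeq2 0), and 1 member, Junb, was under an unadjusted p of 0.05. The difference was above 0 for Fosb (0.27, SE 0.16, adjusted p = 0.62) and below 0 for the other 9, from -0.14 for Egr4 to -0.62 for Fos. Of 10 alternative settings of the fit, 1 gave the other sign for Fosb and 2 for Egr4 and for Npas4. The AS vehicle mice came from both divisions. With H13 to H16 alone 0 members and 15 genes passed, and with H17 and H18 alone 0 members and 205 genes. Junb was at 56.5, 72.7 and 130 CPM in WT and at 51.3, 64 and 90.5 CPM in AS mice, with overlap (log2 -0.37, SE 0.17, adjusted p = 0.5). The ranges overlapped for all 10 members, and 0.746% of genes had ranges apart.

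With CORT, AS mice had lower Egr1, Egr4 and Nr4a1 than WT mice, 3 of 10 members, where 24.9% of all genes passed and 13.2% were lower. Egr4 was at 40.7, 48.5 and 56.8 CPM in WT mice and at 24.4, 28.4 and 43.9 CPM in AS mice, so that only H21 among the AS mice reached into the WT range (log2 -0.67, SE 0.18, adjusted p = 0.00885). Egr1 was at 103, 117 and 144 CPM in WT mice, and 5 of 6 AS mice were below the lowest of them while H21 at 132 CPM was inside (log2 -0.64, SE 0.22, adjusted p = 0.037). Nr4a1 was at 56.4, 63.4 and 96.2 CPM in WT mice and at 23.3, 40.3 and 77.9 CPM in AS mice, with the same mouse H21 highest (log2 -0.66, SE 0.24, adjusted p = 0.046).

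The other members were below 0 as well, from -0.27 for Fosb to -0.67 for Fos, and Arc (-0.62, SE 0.26, adjusted p = 0.0793) and Fos (adjusted p = 0.129) did not pass. Fosb, Npas4 and Ier2 each had the other sign in 1 of 9 alternative settings of the fit. Ranges overlapped for all 10 members, where 11.1% of genes had ranges apart. With GC and length trends removed 0 members passed, while 2706 genes did, with Egr1 at -0.49 (adjusted p = 0.104), Egr4 at -0.36 (adjusted p = 0.0696) and Nr4a1 at -0.52 (adjusted p = 0.115). No WT mouse is in H17 to H24, so the covariate rests on the AS vehicle mice alone. With it the differences of Egr1, Egr4 and Nr4a1 shrank to -0.07, -0.05 and -0.08 (adjusted p = 0.991), 0 genes passed, and Fosb stood at 0.36. Egr4 kept its call without each of the 24 mice (adjusted p up to 0.0241). Egr1 lost it without any 1 of H7, H11, H12, H22, H23 and H24 (adjusted p up to 0.0912), and Nr4a1 without any 1 of H2, H3, H7, H10, H11, H12, H14, H19, H22, H23 and H24 (adjusted p up to 0.11). DESeq2 gave Nr4a1 an adjusted p of 0.0592. The summed neuron markers were 12710 to 14522 CPM in AS mice with CORT and 13930 to 16102 CPM in WT mice with CORT, and their part in these differences was not tested. In bulk tissue fewer cells of a type and less RNA per cell cannot be told apart.

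The interaction, the CORT effect of AS mice minus that of WT mice, passed for 0 of 10 members, beside 4.49% of genes, with 2 members under an unadjusted p of 0.05 and 0 called by DESeq2. Fosb (-0.55, SE 0.23, adjusted p = 0.147 by edgeR) and Egr4 (-0.53, SE 0.25, adjusted p = 0.203) had the values farthest below 0 and Egr2 (0.17, SE 0.59) the farthest above it. A different answer of AS and WT mice was therefore not shown for any member, although Fosb, Egr1 and Egr4 passed in AS mice and not in WT mice. With H13 to H16 as the AS vehicle mice Fosb (-0.72, adjusted p = 0.0171) and Egr4 (-0.70, adjusted p = 0.0478) passed, and with H17 and H18 both were at -0.10.

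**Figure D2:**
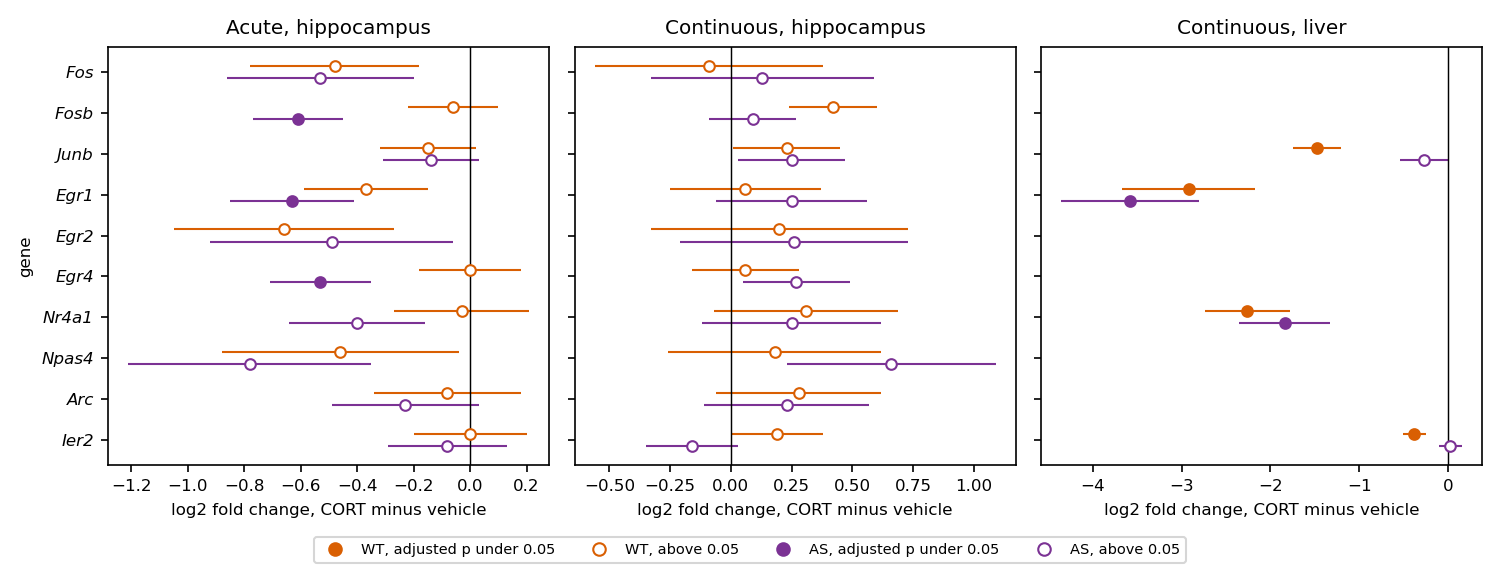
Log2 fold change of each member, CORT minus vehicle, with lines of 1 SE, in WT (orange) and AS mice (purple) of the 3 sets, filled where the adjusted p of edgeR was under 0.05. The 3 panels have separate x scales, and members with too few liver reads have no point. All AS points of the acute panel are below 0, most points of the continuous hippocampus are above 0, and the liver points of Junb, Egr1, Nr4a1 and Ier2 reach down to -3.58.

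After 5 days of CORT no member of the hippocampus passed the test. In WT mice 0 of 10 passed (beside 2.92% of 14949 genes) and in AS mice 0 of 10 (beside 3.77%), and DESeq2 called 0 in both. At an unadjusted p under 0.05 there was 1 member in WT mice and 0 in AS mice. Values were above 0 for 9 of 10 members in each genotype, with medians of 0.20 and 0.25 against 0.00 over all genes. Because the members varied together from mouse to mouse, these signs are not 10 separate results.

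Fosb was the member under an unadjusted p of 0.05 in WT mice. It was at 6.48, 5.8, 6.9 and 8.66 CPM in the 4 vehicle mice and at 10.4, 8.11, 7.7, 12 and 8.34 CPM in the 5 CORT mice. Only the vehicle mouse H17 reached into the range of the CORT mice (log2 0.42, SE 0.18, adjusted p = 0.265 by edgeR).

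Npas4, which activates genes of inhibitory synapses after neuronal firing, had the highest value in AS mice. Vehicle mice were at 5.24, 10.4, 3.02 and 8.5 CPM and CORT mice at 7.14, 5.25, 5.95, 20 and 15 CPM. The mice H16 and H18 alone stood above the vehicle range (log2 0.66, SE 0.43, adjusted p = 0.528). The same 2 mice were highest for Arc, at 207 and 199 CPM against 87.3 to 109 CPM in the other 3 AS mice with CORT, and for Fos, at 14.1 and 17 CPM against 3.34 to 4.93 CPM.

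Genotype did not alter any member of the continuous hippocampus past the test, with vehicle (0 of 10, beside 0.0134% of genes) or with CORT (0 of 10, beside 0.0401%), and the interaction passed for 0 of 10 members and 0 genes, with 561 genes under an unadjusted p of 0.05. In these 3 comparisons 0 members were under an unadjusted p of 0.05 and 0 were called by DESeq2. The value farthest from 0 was that of Egr2, a factor also known from myelination, at 0.90 (SE 0.46, adjusted p = 0.513) with CORT. Egr2 was at 1.95, 0.885, 0.922, 2.68 and 1.02 CPM in WT mice with CORT and at 1.93, 2.22, 1.67, 4.25 and 3.85 CPM in AS mice with CORT. Of the WT mice 3 were below every AS mouse and 2 were among them. Ranges overlapped for all 10 members in each of the 4 comparisons of the continuous hippocampus. Of all genes, 6.16% and 6.8% had ranges apart between CORT and vehicle in WT and AS mice, and 4.01% and 2.13% between genotypes with vehicle and with CORT.

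The CORT effects of WT hippocampus after 3 h and after 5 days were set against each other in a fit of both cohorts. The difference passed for 0 of 10 members (beside 0.484% of 15084 genes, DESeq2 0 members), with 0 members under an unadjusted p of 0.05. It was below 0 for 10 of 10, from -0.08 for Egr4 (SE 0.30) to -0.87 for Egr2 (SE 0.68), and Fosb (-0.49, SE 0.25, adjusted p = 0.533) had the smallest p. The members varied together from mouse to mouse within a group, so this shared sign is not 10 separate results. The cohorts differ in route, dose and time together.

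**Figure D3:**
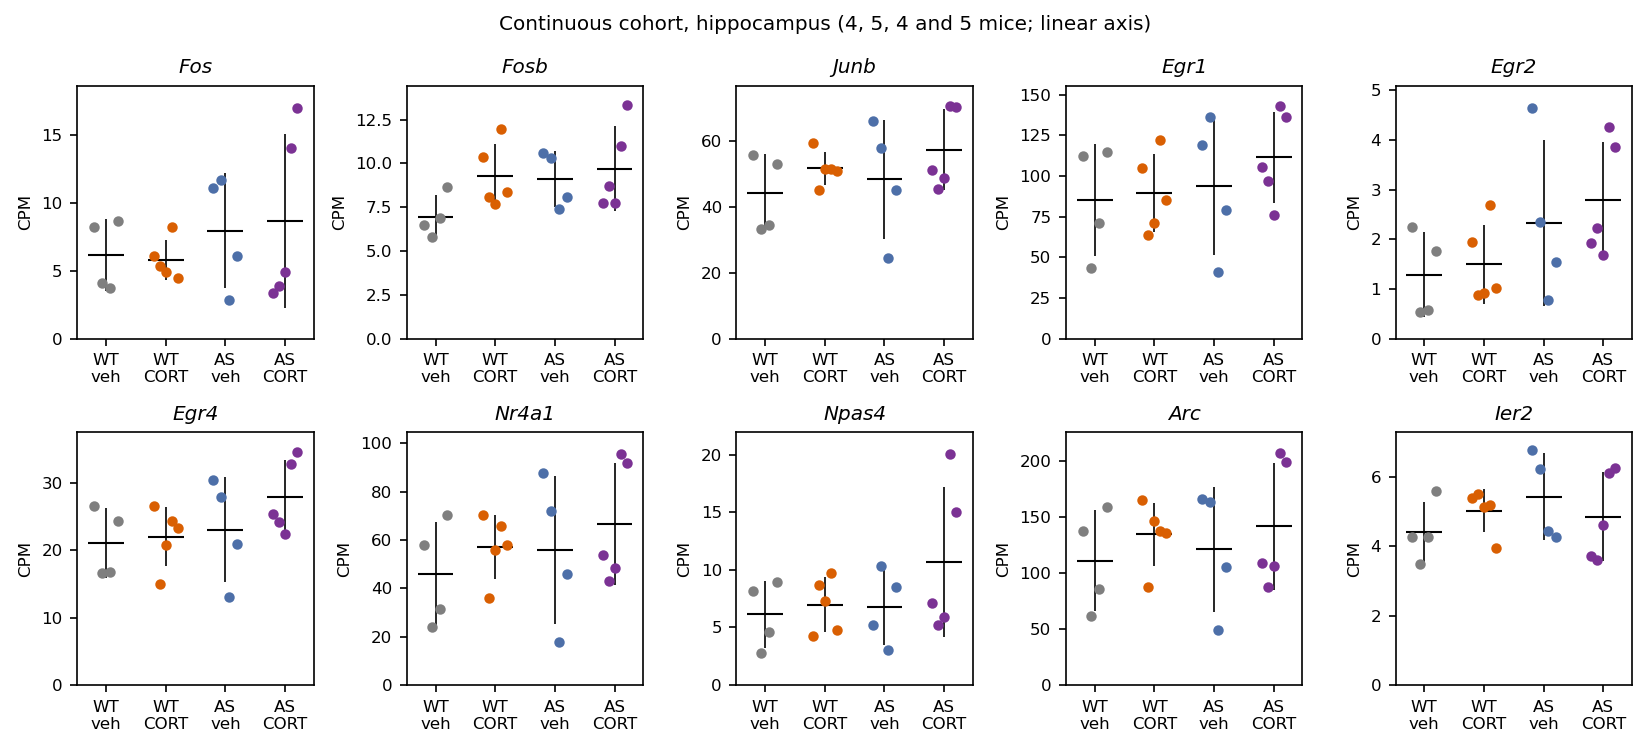
Levels of the 10 members in the continuous hippocampus in CPM (1 panel per gene, axes from 0, separate scales), with 1 point per mouse, bars at the group mean and lines of 1 SD, 4 vehicle and 5 CORT mice per genotype. The groups overlap in every panel, and H16 and H18 are the upper pair of the AS mice with CORT.

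In the liver the members were present at other levels. In vehicle mice Junb, Egr1 and Nr4a1 were lower than in the hippocampus and Ier2 was higher, beside 92.8% of 16205 genes that differed between the tissues, 50.4% lower and 42.4% higher in liver. The other 6 members were lower too, but they entered this fit only through the hippocampus, where they are high, so the filter on low counts fixed their direction. Ier2, a small nuclear protein gene of the rapid response, was at 22.2 to 34.5 CPM in the 10 vehicle livers and at 3.49 to 6.76 CPM in the 8 vehicle hippocampi, so that the tissues lay apart (log2 3.50, SE 0.13, adjusted p = 1.11e-24 by edgeR). Per length it was the highest member of the WT vehicle liver at 19.6 ± 2.74 RPKM (n = 5), ahead of Junb at 9.31 ± 4.55 RPKM and Egr1 at 2.15 ± 2.36 RPKM. Junb was lower in liver by the smallest amount (log2 -0.53, SE 0.19, adjusted p = 0.00853), a call that was lost without mouse number 2 (log2 -0.36, adjusted p = 0.0679).

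Members known for their neuronal expression were at or near 0 in liver. Npas4 had 0 counts in all 20 livers and Egr4 1 count, where the vehicle hippocampus had 6.45 and 22.1 CPM. Against the floor of 3 counts per library, 0.148 CPM, Npas4 was at least 43.6-fold and Egr4 at least 149-fold lower in vehicle liver. Arc had 43 counts over 20 livers, Fosb 39, Egr2 19 and Fos 156, with at most 15 in a library. These 6 members did not pass the filter on low counts and were not tested for CORT in liver, so 4 of 10 members remained, Junb, Egr1, Nr4a1 and Ier2.

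Under continuous CORT Junb, Egr1 and Ier2 fell in the liver of WT mice, beside 18.6% of 12273 genes that passed and 9.9% that were lower. Nr4a1 is given apart from them, since it entered the liver fit only through the 2 vehicle groups, and 0 of 10 CORT mice exceeded the normalized count of 20 that the filter asks for. The filter therefore favoured a fall of Nr4a1, and its calls in liver are not counted with those of the other members. Junb was at 38, 12.6, 20.6, 23.5 and 12.4 CPM in the vehicle mice and at 8.07, 10.1, 6.78, 7.11 and 6.48 CPM in the CORT mice. No CORT mouse reached the lowest vehicle mouse (log2 -1.47, SE 0.27, adjusted p = 0.000663).

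Egr1 was at 2.74, 2.16, 27.6, 5.1 and 10.7 CPM with vehicle and at 1.39, 1.23, 0.829, 1.07 and 1.84 CPM with CORT. The ranges were again apart, and the vehicle mice alone spread over 12.8 times (log2 -2.92, SE 0.75, adjusted p = 0.00865). Without L6, the highest of them, the difference was -2.02 (adjusted p = 0.0424). Nr4a1, which acts in hepatic glucose metabolism, was at 1.44, 0.453, 3, 2.84 and 2.65 CPM with vehicle and at 0.594, 0.36, 0.88, 0.256 and 0.051 CPM with CORT. Its lowest vehicle mouse, L4, was within the CORT range (log2 -2.26, SE 0.48, adjusted p = 0.0021, and -2.26 with 0.00137 by edgeR without the filter on low counts).

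Ier2 changed least, from 34.5, 24.2, 28.5, 28.5 and 33.5 CPM to 24.2, 24.7, 23, 20.7 and 22 CPM. L4 was again the vehicle mouse that met the CORT mice (log2 -0.38, SE 0.13, adjusted p = 0.0405). The call of Ier2 was lost without any 1 of L1, L3, L5, L12, L13, L15, L17 and L20 (adjusted p up to 0.105) and without the filter on low counts (adjusted p = 0.065). Ranges were apart for Junb and Egr1, where 14.1% of genes had ranges apart.

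In AS mice Egr1 fell, beside 27.5% of genes that passed and 15% that were lower. Egr1 was at 0.914, 15.3, 17.7, 12.8 and 5.38 CPM with vehicle and at 0.419, 0.438, 2.11, 0.208 and 1.12 CPM with CORT. The vehicle mouse L2 was among the CORT mice and the other 4 were above them (log2 -3.58, SE 0.78, adjusted p = 0.0019). Nr4a1 was at 0.914, 1.61, 1.43, 1.47 and 0.921 CPM with vehicle and at 0.314, 0.146, 0.294, 0.364 and 0.642 CPM with CORT, without overlap, where 16.6% of genes had ranges apart. Its difference was -1.84 (SE 0.51, adjusted p = 0.0112), and -1.81 without the filter on low counts (adjusted p = 0.0115), which had favoured this direction as in WT mice.

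Junb and Ier2 did not pass in AS livers. Junb was at 8.37, 12.8, 16.6, 15.3 and 13.6 CPM with vehicle and at 11.8, 15.1, 7.8, 7.9 and 12.7 CPM with CORT (log2 -0.27, SE 0.27, adjusted p = 0.501). Ier2 was at 22.2 to 31.9 CPM with vehicle and at 21.8 to 36.1 CPM with CORT (log2 0.03, SE 0.13, adjusted p = 0.889). The interaction did not pass for any of the 4 members (0 of 12273 genes did, 995 genes and 2 of the members at an unadjusted p under 0.05, DESeq2 0 members). Its value was 1.21 for Junb (SE 0.38, adjusted p = 0.474 by edgeR) and 0.41 for Ier2 (SE 0.18, adjusted p = 0.568), so a different answer of the genotypes was not shown.

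Between genotypes the 4 liver members did not differ past the test, with vehicle (0 of 4, beside 0.0163% of genes) or with CORT (0 of 4, beside 0.277%). At an unadjusted p under 0.05 there was 1 member in each, Junb with vehicle (-0.68, SE 0.27, adjusted p = 0.375) and Ier2 with CORT (0.35, SE 0.13, adjusted p = 0.414), and DESeq2 called 0. Ranges overlapped for the 4 members in both, where 1.64% and 2.18% of genes had ranges apart.

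Markers of some other liver cells stood at lower levels with CORT and those of others did not. A list of 5 Kupffer cell markers summed to 107 to 142 CPM in WT and 140 to 196 CPM in AS vehicle mice, and to 52.9 to 77.6 and 53.9 to 79.3 CPM with CORT. A list of blood markers was at 343 to 574 CPM with vehicle and 229 to 328 CPM with CORT in WT mice, and at 243 to 475 and 124 to 192 CPM in AS mice. A list of microglia markers, which macrophages share, was at 31.9 to 61.4 CPM in the 10 vehicle mice and at 16.8 to 24.3 CPM in the 10 CORT mice. Stellate cell markers overlapped, at 180 to 255 CPM with vehicle and 173 to 261 CPM with CORT over both genotypes, as did cholangiocyte markers (15.4 to 41.7 and 17.7 to 25.2 CPM), liver endothelium markers (90.4 to 149.7 and 88.1 to 142 CPM) and neutrophil markers (0.194 to 1.13 and 0.102 to 1.55 CPM). Hepatocyte markers were at 93709 to 104850 CPM with vehicle and 99431 to 116670 CPM with CORT in WT mice, and at 90537 to 123670 and 118600 to 141110 CPM in AS mice. The part of these cells in the lower levels of Junb, Egr1 and Nr4a1 was not tested.

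The CORT effects of the 2 tissues, averaged over the genotypes, differed for Egr1 (-3.38, SE 0.60, adjusted p = 6.5e-05), Junb (-1.08, SE 0.26, adjusted p = 0.00285) and Nr4a1 (-2.31, SE 0.54, adjusted p = 0.00191), beside 19.6% of 16205 genes, and were lower in liver for these, beside 8.9% of genes. Nr4a1 was among the members compared because of its level in vehicle livers, which favoured a lower effect in liver. Ier2 did not differ past the test (-0.16, SE 0.16, adjusted p = 0.562). The calls of Egr1 and Junb were kept without each of the 20 mouse numbers.

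**Figure D4:**
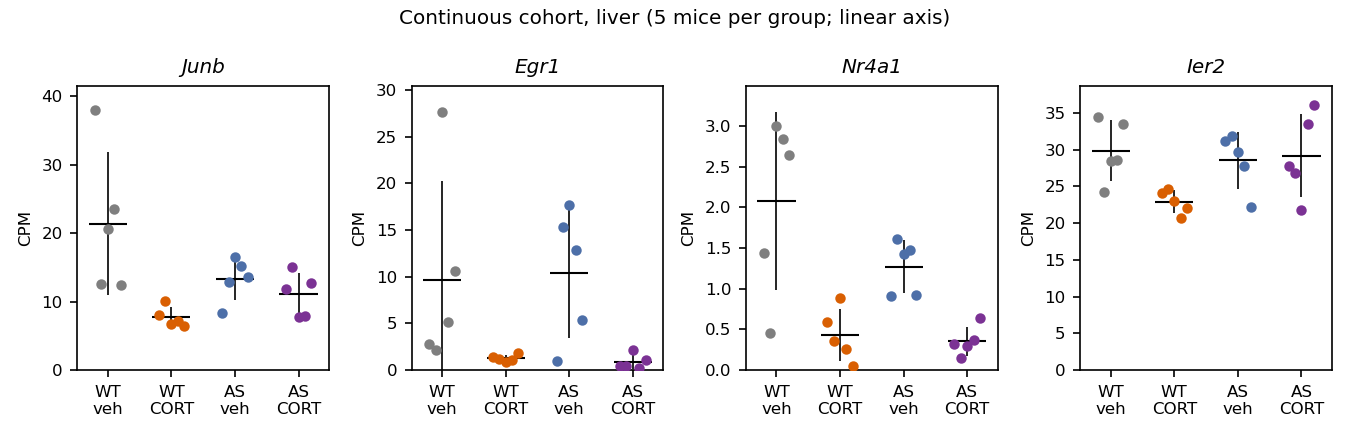
Levels of the 4 tested members, Junb, Egr1, Nr4a1 and Ier2, in the continuous liver in CPM (1 panel per gene, axes from 0, separate scales), with 1 point per mouse, bars at the group mean and lines of 1 SD, cut at 0 where they would go below it, 5 mice per group. In WT mice the CORT points of Junb and Egr1 lie below all vehicle points.

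The members varied together from mouse to mouse within a group. After the group means were taken off the log2 CPM values, 45 of 45 member pairs correlated in the acute hippocampus (24 mice, permutation test, adjusted over 45 pairs) and 45 of 45 in the continuous hippocampus (18 mice). In the acute cohort Pearson's r ranged from 0.418 for Fosb with Egr2 to 0.922 for Egr1 with Nr4a1, with a median of 0.724 and a median Spearman's rho of 0.737. In the continuous cohort it reached from 0.554 to 0.985, the latter for Nr4a1 with Arc, with a median of 0.797 and a median rho of 0.796. For comparison, the median over all other tested genes of their median r with the members was 0.010 in both cohorts.

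For Egr1 with Nr4a1 in the acute cohort rho was 0.873, and the permutation p of r, 1e-05, was the smallest that 100000 resamples can give (adjusted p = 5.62e-05, that of rho 8.18e-05). Without the 2 farthest mice on the Egr1 axis r was 0.882. Over all pairs the median r without the 2 farthest mice was 0.718 in the acute and 0.791 in the continuous cohort. Within H1 to H16 the median r was 0.771 and within H17 to H24 it was 0.688, with 45 of 45 pairs above 0 in both divisions. Leaving out 1 mouse left 44 to 45 pairs past the threshold in the acute cohort and 41 to 45 in the continuous cohort. With H9 and H13 put back, 29 of 45 pairs passed in the continuous cohort. Counts of the same library share its depth and its dissection, so these correlations describe mice and say nothing of what drives them.

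Arc and Junb had the highest median r with the other members in the acute cohort (0.814 and 0.790) and Egr2 the lowest (0.646). In the continuous cohort Egr4 (0.897) and Egr1 (0.893) were highest and Npas4 (0.673) and Ier2 (0.696) lowest. Neighbouring values in these orders are close, and their differences were not tested.

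Many mice deviated in the same direction for all members. In 14 of 24 acute mice all 10 members were on the same side of their group means, 7 above and 7 below, and in 19 of 24 mice 9 or more were. In the continuous hippocampus this held for 10 of 18 mice, 5 above and 5 below. The WT vehicle mice H4 and H1 had mean deviations of 0.715 and 0.668 in log2 CPM, and the WT vehicle mouse H5 had -0.591. H4 and H1 were the top 2 mice of their group for 10 of 10 members, with Npas4 at 20.9 and 16.7 CPM against 2.42 to 10.3 CPM and Arc at 274 and 280 CPM against 110 to 145 CPM. Among AS mice with CORT, H19, H20 and H21 were above their group means for 10 of 10 members and H22, H23 and H24 below for 9 or 10.

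In the continuous cohort the AS vehicle mouse H14 was lowest at -0.926, with Nr4a1 at 17.7 CPM against 45.9 to 87.8 CPM in the other 3 mice of its group. H16 (0.561) and H18 (0.553), both AS mice with CORT, were highest. Across mice, also after removal of group means, the mean over the members had r = 0.308 with the neuron markers in the acute cohort and -0.294 in the continuous cohort, r = 0.203 and 0.595 with 7 myelin markers, and r = -0.254 with the low-quality reads of the acute cohort (24 and 18 mice, given as a description). The highest and lowest r with the other marker lists were 0.458 for hepatocyte and -0.112 for stellate cell markers in the acute cohort, where blood markers had 0.389, and 0.42 for choroid plexus and -0.486 for thalamus markers in the continuous cohort. The part of tissue composition in the shared movement was not tested.

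**Figure D5:**
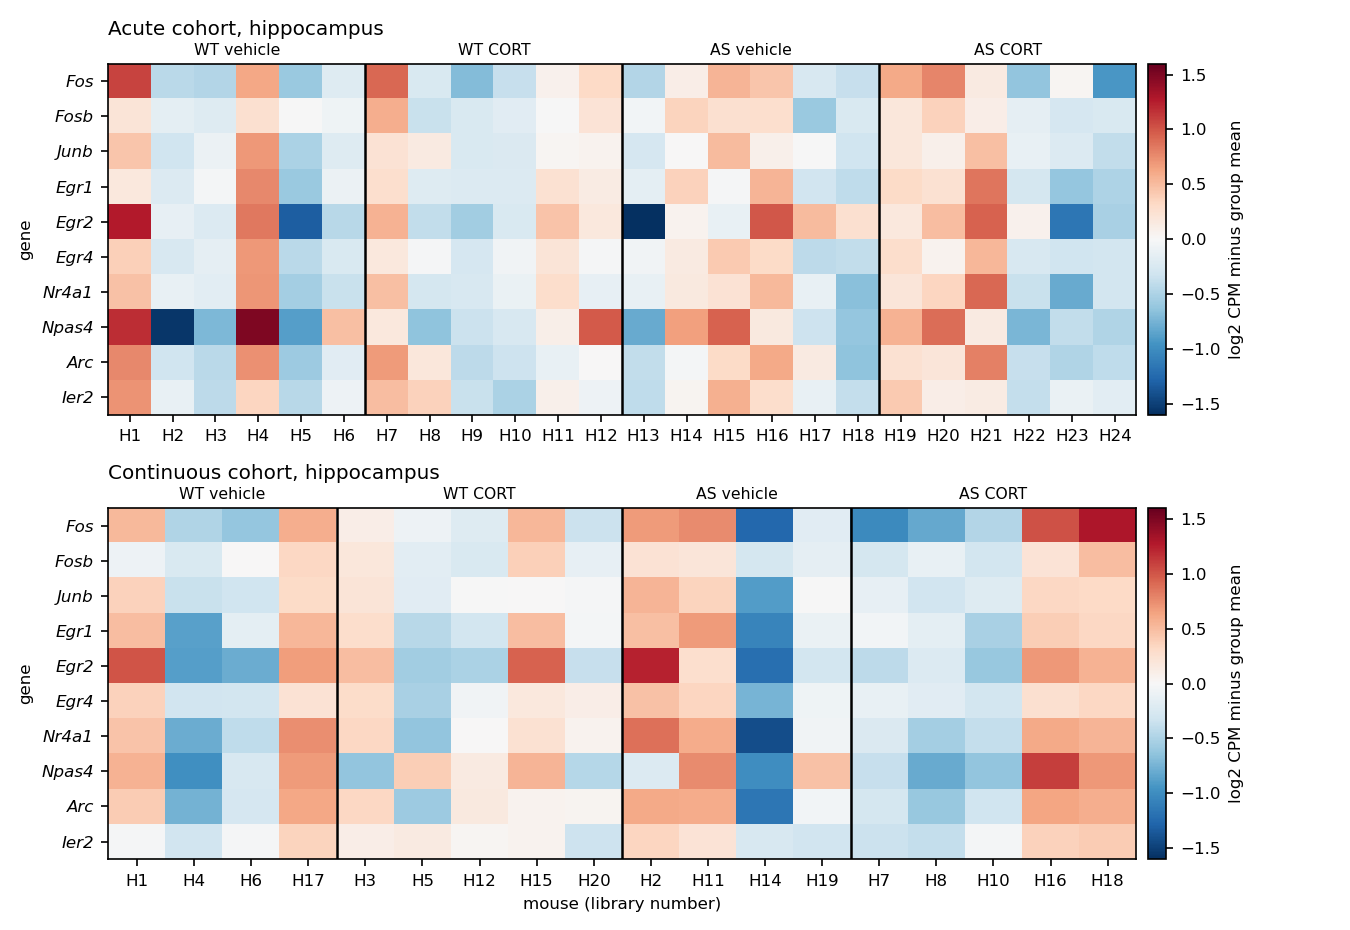
Heat map of the deviation of each member from its group mean in log2 CPM (red above, blue below), with genes as rows and the mice of the acute and the continuous hippocampus as columns, in order of group. In 14 of 24 acute and 10 of 18 continuous mice all 10 members are on the same side of 0, seen as columns of a single colour.

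In the liver this was not shown for the 4 tested members. Of 6 pairs 0 passed (20 mice, permutation test), with a median r of 0.204, a median rho of 0.157 and a highest r of 0.449 for Nr4a1 with Ier2 (rho 0.436, permutation p = 0.0335, adjusted p = 0.201). Whether the correlations of the tissues differ was not tested. After removal of group means the mean over these 4 members had r = 0.812 with the cholangiocyte markers and -0.667 with the thalamus list over the 20 livers, given as a description, and between -0.349 and 0.439 with the other marker lists. The part of liver composition in this was not tested.

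Among 14601 other genes tested in the acute hippocampus, those most like the members were taken by their median r with the 10 members over 24 mice. They were Dusp1 (0.831), a phosphatase that switches off MAP kinases and is itself rapidly induced, Csrnp1 (0.761), a nuclear factor of the rapid response, Med10 (0.716), a subunit of the Mediator complex, 1700016P03Rik (0.712), a long non-coding transcript, and Dusp6 (0.698), a phosphatase of ERK. In the continuous hippocampus, which this order did not use, the same 5 genes had median r of 0.718, 0.833, 0.766, 0.836 and 0.755 over 18 mice. Csrnp1 and 1700016P03Rik ranked at 3 and 2 there, and Dusp1 at 73.

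Other genes of the pathway were taken from lists of rapid response genes, delayed activity genes, feedback inhibitors and upstream regulators. Where 1.48% of all genes passed, CORT in acute WT mice raised 1 of 33 rapid response genes, Maff (log2 1.12, SE 0.24), a small bZIP factor, 1 of 15 delayed genes, the cell cycle inhibitor gene Cdkn1a (2.27, SE 0.21), and 1 of 21 upstream regulators, the SRF coactivator Mrtfa (0.41, SE 0.07), and 0 of 12 feedback inhibitors. Maff entered the hippocampal fits of both cohorts only through the CORT groups, so the filter on low counts favoured its direction there. The medians of these 4 lists lay between -0.05 and 0.09.

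In acute AS mice 7 of 33 rapid response genes passed, 3 higher and 4 lower, where 17.9% of all genes passed. Maff (1.15, SE 0.24) and the ADP-ribosyltransferase gene Tiparp (0.35, SE 0.10) were higher, and Ier3 (-0.85, SE 0.17) and the nuclear receptor Nr4a3 (-0.55, SE 0.12), of the same family as Nr4a1, were lower. Feedback inhibitors passed for 2 of 12, Zfp36l1 (-0.59, SE 0.12), which promotes decay of short-lived mRNAs, and Spred2 (-0.30, SE 0.07), which restrains ERK signalling. Among delayed genes 4 of 15 passed, with Cdkn1a (2.01, SE 0.22) and Scg2 (0.36, SE 0.12) higher and Vgf (-0.42, SE 0.10), a neuropeptide precursor, and Gpr3 (-0.53, SE 0.14) lower. Among upstream regulators 5 of 21 passed, with Mef2d (-0.32, SE 0.07) and the CREB coactivators Crtc2 (-0.33, SE 0.09) and Crtc3 (-0.26, SE 0.07) lower and Mrtfa (0.25, SE 0.07) higher. With the covariate for the division 150 genes in all passed in this comparison. Of the 14 genes named here Maff (1.97), Cdkn1a (2.21) and Mrtfa (0.47) kept their call with it, and the other 11 lost it (adjusted p of 0.41 or more by edgeR). Among these Ier3 stood at -0.58, Nr4a3 at -0.39, Zfp36l1 at -0.35, Vgf at -0.31, Spred2 at -0.08 and Scg2 at 0.02. With H13 to H16 as the AS vehicle mice Mrtfa was at 0.15 (adjusted p = 0.0765).

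Between AS and WT mice with acute CORT, 7 of 12 feedback inhibitors passed and all 7 were lower, where 24.9% of all genes passed and 13.2% were lower, among them Spry4 (-0.51, SE 0.11), Dusp5 (-0.72, SE 0.18) and Dusp6 (-0.48, SE 0.13). The list had a median of -0.34 where all genes tested had -0.00. Rapid response genes passed for 7 of 33, all lower, with the AP-1 subunit Fosl2 (-0.46, SE 0.08), the clock gene Per1 (-0.43, SE 0.09), Klf2 (-0.61, SE 0.14) and Trib1 (-0.44, SE 0.10). Upstream regulators passed for 8 of 21, with 6 lower and 2 higher, and delayed genes for 3 of 15. The interaction passed for Vgf (-0.55, SE 0.14, adjusted p = 0.0353), Crtc2 (-0.46, SE 0.13, adjusted p = 0.0453) and Crtc3 (-0.34, SE 0.10, adjusted p = 0.0466). These comparisons hold the same AS mice with CORT of H17 to H24, and with the covariate for the division 0 genes passed between AS and WT mice with CORT. The interaction gave 656 genes, and 1 gene with the covariate, 0 with H17 and H18 alone as AS vehicle, 0 with GC and length trends removed and 0 at an adjusted p under 0.01. It gave 2845 genes with H13 to H16 alone as AS vehicle, 1406 without H8 and 1196 by DESeq2. Vgf, Crtc2 and Crtc3 stood at -0.44, -0.26 and -0.25 with the covariate (adjusted p = 0.891).

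In the continuous hippocampus Maff (1.74, SE 0.32 in WT and 2.51, SE 0.30 in AS mice) and Cdkn1a (1.38, SE 0.21 and 1.84, SE 0.20) were higher again. In WT mice they were the genes of these lists that passed, 1 of 33 rapid response and 1 of 15 delayed genes, with 0 of 12 feedback inhibitors and 0 of 22 upstream regulators, where 2.92% of all genes passed. In AS mice 4 of 33 rapid response genes, 1 of 15 delayed genes, 0 of 12 feedback inhibitors and 1 of 22 upstream regulators passed, where 3.77% of all genes did. Besides Maff and Cdkn1a, Arl4d (1.06, SE 0.26), Trib1 (0.67, SE 0.17) and Mrtfa (0.41, SE 0.08) were higher and Klf10 (-0.48, SE 0.13) lower. In liver CORT raised the rapid response genes Gadd45b (3.76, SE 0.36 in WT and 3.86, SE 0.35 in AS mice), a growth arrest gene, Ccn2 (2.82, SE 0.23 and 2.27, SE 0.22), which encodes a matrix protein, and Cebpd (1.58, SE 0.21 and 2.01, SE 0.22), a hepatic acute phase factor, while Csrnp1 fell in WT mice (-0.83, SE 0.25). Cdkn1a was higher in both genotypes (3.52, SE 0.92 and 3.22, SE 0.91), and Rgs2 (-0.63, SE 0.21 and -1.45, SE 0.21), a brake on G protein signalling, and the SRF partner Elk3 (-0.66, SE 0.18 and -0.99, SE 0.18) were lower. In WT livers 2 of 7 delayed genes, 2 of 20 upstream regulators and 0 of 11 feedback inhibitors passed, and in AS livers 2, 3 and 2 did. In WT livers 3 of 28 rapid response genes were higher and 1 lower, and in AS livers 5 were higher and 4 lower, where 18.6% and 27.5% of all genes passed. These 28 include Gadd45b, which passed the filter only through the CORT groups, Atf3, only through the WT mice with CORT, and Klf4, only through the vehicle groups, so the filter favoured their directions.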

How the data were processed

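Poly(A) RNA of 44 hippocampi and 20 livers was sequenced with stranded libraries. The authors used STAR for alignment to mm10 and HTSeq-count for counting, and deposited raw read counts per gene. The annotation release and strand setting are not given in the sources used here. Gene IDs were matched to GENCODE M21 (52133 of 55414 and 55480 of 55573).

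A gene entered a fit if 3 or more libraries of a group exceeded a normalized count of 20. Tests used edgeR 4.0.16 (R 4.3.3) by its quasi-likelihood test with TMM normalization and 1 coefficient per group. P-values were Benjamini-Hochberg adjusted over all genes tested, with a threshold of 0.05. Log2 CPM values used a prior count of 2, and permutation tests 100000 resamples (numpy 2.4.6). Within a tissue each library is a separate mouse, and liver and hippocampus of the continuous cohort carry the same 20 numbers. Depth was 21779535 to 24735429 reads, with 11.74 to 23.29% on no gene. The fits were tested on simulated data, and no 2 libraries of a group agreed within sampling noise.

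Alternatives were DESeq2 1.42.0, other normalizations, no filter, a threshold of 0.01, only the groups compared, each library left out, the divisions of the acute cohort, GC and length trends, a replicate block and the left-out libraries. Named were all 10 members, Ube3a, Fkbp5 and Tsc22d3, up to 4 genes with the smallest adjusted p per list and comparison, and the 5 genes most like the members. The members and lists were chosen with earlier results of these data known.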

Additional observations from a re-analysis of the deposited data

Results flagged for a closer look

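In 96 groups of 4 to 6 values, 2 had a mouse far from the others by Dixon's criterion, where chance at 1 in 20 gives 4.8. Npas4 was at 13.2 CPM in H12, the highest of the acute WT mice with CORT, and the next mouse was at 7.45 CPM. Ier2 was at 3.94 CPM in H20, the lowest of the continuous WT hippocampi with CORT, and the next was at 5.12 CPM.

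The CORT effect differed between liver and hippocampus by the edgeR test of the difference itself for Junb (-1.08) and Egr1 (-3.38, log2, liver minus hippocampus). Nr4a1 stood at -2.31, but it was compared only because of its level in vehicle livers, so the filter on low counts favoured this direction.

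The continuous hippocampal libraries H9 and H13, which entered only alternative fits, held member levels outside the other 8 vehicle mice when all 20 libraries were normalized together. Fos was at 24.2 CPM in H9 against 2.86 to 11.8 CPM, and Ier2 at 10.8 CPM in H9 against 3.51 to 6.8 CPM. Fosb was at 11.6 CPM in H13 against 5.84 to 10.7 CPM, and Npas4 at 21.5 CPM in H13 against 2.78 to 10.4 CPM. Below the other mice were Junb at 23.5 CPM (24.5 to 66.5) and Egr4 at 6.87 CPM (13.1 to 30.5) in H9, and Ier2 at 3.27 CPM in H13. In H9 Fos and Ier2 were thus high while Junb and Egr4 were low.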

How the results depend on the processing

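Left out here are 9 calls of members whose direction the filter on low counts fixed or favoured, 3 of Nr4a1 that rest on CORT in liver and 6 for the level between tissues. Of 467 alternatives over the other 16 calls of single members, 395 kept the call and its direction, 72 lost the call and 0 reversed. The covariate for the division marks H17 to H24 against H1 to H16 and does not use the number of low-quality reads. Acute CORT in AS mice, 3 members called, gave 0 with this covariate, 0 with the AS vehicle group reduced to H17 and H18, 0 at an adjusted p under 0.01 and 1 with GC and length trends removed (Fosb). AS against WT mice with CORT, also 3, gave 0 with the covariate, 0 with the trends removed and 1 at 0.01 (Egr4). There Mef2d reversed to 0.11 with the covariate. The acute interaction gave 2 members with H13 to H16 as the AS vehicle mice, and the continuous pairs 29 of 45 with all 20 mice. For CORT in AS livers Egr1 kept its call at 0.01. The cause was not tested.

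Without 1 mouse the counts were 1 to 3 for acute CORT in AS mice (1 without any of H14, H15, H16, H20, H22, H23 and H24), 1 to 5 for AS against WT mice with CORT (1 without any of H7, H11, H12, H22, H23 and H24, 5 without H21), 0 to 1 for the acute interaction (1 without H17), 2 to 3 for CORT in WT livers, and 3 to 4 for the level between tissues (3 without number 2). The replicate block on the number shared by liver and hippocampus left 3 members called for the tissue difference of the CORT effect, Nr4a1 among them, and 4 for the level, and changed no call. Each number has the same genotype and treatment in both tissues, and 20 mice were implanted, so a number may mark a mouse, but the labels do not say so. Own-number deviations correlated at a median of 0.016 (-0.064 to 0.076) over 11017 genes, and 0 of 18 hippocampi correlated best with their own number. Chosen after seeing the data, all 20 mice gave 3 and 4 members for these results, and the acute against continuous effect stayed at 0 with all 20 mice and without H8. Low counts limit Egr2 in hippocampus and 6 members in liver.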

Other observations

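Over 18 numbers of the continuous cohort, after removal of group means, hippocampal and liver Ier2 had r = 0.699 (permutation p = 0.0111, adjusted p = 0.0442 over 4 members) and rho = 0.754 (adjusted p = 0.0184), and r = 0.653 without the 2 farthest mice. Nr4a1 (r = 0.234), Junb (-0.0986) and Egr1 (-0.14) did not pass (adjusted permutation p of 0.684 or more). The labels do not state that a number marks the same mouse in both tissues, and over all genes deviations of the same number had a median correlation of 0.016.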
